A study of Mus musculus with 2 samples.

Results

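The genes described here are 45 genes of the hypoxia response and of glycolysis, out of 21774 protein-coding genes of the mouse annotation, chosen by name: 7 regulators of the hypoxia-inducible factors (HIF), 19 genes of glucose uptake, glycolysis and lactate handling, and 19 other genes known as HIF targets. All 45 names were found in the annotation. The list was made with earlier results of these data known, among them the count of oxygen-response genes at gene ends. A gene counted as having a peak when the summit of a KMT2D peak lay inside it or within 50 kb of it. The peaks come from wild-type HT22 cells, an immortalised mouse hippocampal cell line labelled as a wild-type clone, plated at equal density and taken at 70% confluency. The series set 1 library of chromatin precipitated with an antibody against KMT2D against 1 library of input chromatin prepared with no antibody; cells with a CRISPR-Cas9 deletion of the SET domain of KMT2D are also part of its design and are not analysed here. No low-oxygen treatment is named in the labels, and transcript levels were not analysed here. With 1 library of each kind there is no replicate check and no test between conditions, so counts and folds below are descriptions of these libraries, read beside the same count over all genes or all peaks.

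KMT2D adds methyl groups to lysine 4 of histone H3 and is best known at enhancers. HIF is a pair of proteins, an oxygen-sensitive alpha subunit (from Hif1a or Epas1) and a stable beta subunit (from Arnt). When oxygen is plentiful, prolyl hydroxylases (Egln1, Egln2 and Egln3) mark the alpha subunit, and the VHL protein has it destroyed. When oxygen is scarce, the alpha subunit persists, and HIF binds a short DNA core, read as ACGTG or in a second form as GCGTG, near genes that move cells from respiration to glycolysis, curb growth and remove mitochondria.

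The fold of a peak is the authors' value from their peak caller: the pileup of ChIP fragments at the summit divided by a background set from the input library. In all, the deposited list held 3738 peaks with a median fold of 4.45 (quartiles 3.50 and 5.75). From its fold and p-value the number of fragments at a summit can be solved, and this was done for all 29 peaks at these genes. Intervals given beside a fold are at 95%, the exact Poisson interval of the ChIP count over an unchanged background, which covers counting error only. Coordinates are on mm10, counted from 1; exons and introns were not told apart. The 29 summits had 14 to 80 ChIP fragments (median 33, against 30 over the whole list) over backgrounds of 2.33 to 14.7 (median 6.05, against 6.05).

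Of the 45 genes, 20 (44.4%) had a summit inside or within 50 kb, where the share over all protein-coding genes was 24.9%. By group the counts were 1 of 7 HIF regulators (14.3%), 9 of 19 glycolysis genes (47.4%) and 10 of 19 other targets (52.6%). A window of 50 kb often holds other genes, and 14 of the 29 summits lay nearer to another protein-coding gene. Counting only genes that were the nearest protein-coding gene to a summit left 15 of 45 (33.3%), against 11.0% of all genes: no HIF regulator, 6 glycolysis genes and 9 other targets. A window of 10 kb held a summit for 14 genes (31.1%, against 12.1%), and 7 genes had a summit inside them (15.6%, against 6.72%). Raising the peak threshold lowered the counts of members and of all genes alike. Among peaks with −log10 q at or above the list's median, 13 members had a summit within 50 kb (28.9%, against 13.6%), and 5 had one among peaks whose fold reached the 75th percentile (11.1%, against 7.48%). The windows around the 45 genes covered 5.83 Mb and held 4.97 summits per Mb, where the windows around all protein-coding genes held 1.91 per Mb. The density was 1.03 per Mb around HIF regulators, 4.33 around glycolysis genes and 7.31 around the other targets. The members were a median 22797 bp long, against 17219 bp for all protein-coding genes, and their windows held a median of 2 other protein-coding genes, against 3.

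**Figure D1:**
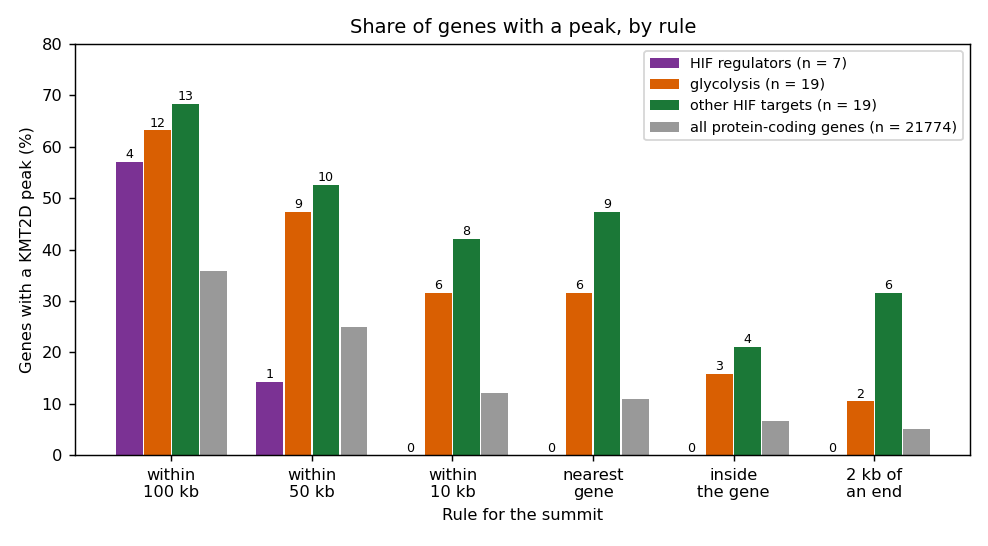
Share of genes with a KMT2D peak (vertical axis, percent) under 6 rules for where the summit may lie (horizontal axis), for the 3 groups of members and for all protein-coding genes; the number over a bar is the count of genes. The glycolysis genes and the other targets are above all protein-coding genes under each of the 6 rules drawn, and the 7 HIF regulators have no peak under the 4 rules at right.

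Close to the genes, 8 of the 45 (17.8%) had a summit within 2 kb of an end, against 5.08% of all protein-coding genes: the glycolysis genes Aldoa and Pkm and the other targets Bnip3l, Ccng2, Cited2, Ddit4, Kdm3a and Vegfa. No HIF regulator was among them. Because an earlier count of oxygen-response genes at gene ends in these data was known when the members were chosen, these shares are not independent support of it. Of these 8, Ccng2 and Kdm3a were left among peaks with −log10 q at or above the list's median (2 of 45, 4.44%, against 1.72%), and none among peaks whose fold reached the list's 75th percentile (0 of 45, against 0.657%). The start of transcription and its strand were listed for 39 members. Peaks covered part of the 250 bases before a listed start in 6 of these 39 genes (15.4%), against 2.69% of all genes with a listed start. They were Ccng2, Aldoa, Kdm3a, Cited2, Pkm and Ddit4. The peaks of Cited2, Pkm and Ddit4 were weak calls, with a −log10 q of 1.92, 1.92 and 1.997. Starts rich in CpG were more often under a peak. Of all listed starts 1.95% were covered, and of the 7314 with 11 to 22 CpG in these bases, the middle range of the members, 3.38%; of the 29 member starts in that range 5 were covered (17.2%).

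The sequences before 4 of these starts are shown. A peak lies on part of each, and the listed start is the outer end of the gene, so that each is sequence before the gene. Only the summit of Ccng2, at -173, lies within the bases shown. Those of Ddit4, Pkm and Cited2 lie at -314, -347 and 28. They are RefSeq promoter sequence of GRCm38.p6 (mm10), 250 bases long and written 5′ to 3′ in the direction of the gene, with every match to ACGTG, and likewise every match to GCGTG, on either strand, in capitals. Ccng2 is at chr5:93267323-93267572 (plus strand), Cited2 at chr10:17722978-17723227 (plus), Ddit4 at chr10:59951771-59952020 (minus) and Pkm at chr9:59656326-59656575 (plus).
Ccng2: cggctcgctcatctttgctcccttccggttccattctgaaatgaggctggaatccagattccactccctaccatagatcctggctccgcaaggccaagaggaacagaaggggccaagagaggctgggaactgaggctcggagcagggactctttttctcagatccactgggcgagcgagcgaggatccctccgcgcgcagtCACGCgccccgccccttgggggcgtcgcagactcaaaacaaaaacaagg
Cited2: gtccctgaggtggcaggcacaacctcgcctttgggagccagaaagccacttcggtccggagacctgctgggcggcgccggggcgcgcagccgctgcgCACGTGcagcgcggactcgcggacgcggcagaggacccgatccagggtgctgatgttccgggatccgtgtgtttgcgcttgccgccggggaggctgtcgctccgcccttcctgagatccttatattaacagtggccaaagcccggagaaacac
Ddit4: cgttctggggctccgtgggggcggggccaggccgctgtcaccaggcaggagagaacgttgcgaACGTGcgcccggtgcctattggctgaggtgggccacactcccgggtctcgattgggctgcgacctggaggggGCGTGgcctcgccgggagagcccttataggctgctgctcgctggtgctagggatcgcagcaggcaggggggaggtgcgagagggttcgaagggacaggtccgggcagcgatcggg
Pkm: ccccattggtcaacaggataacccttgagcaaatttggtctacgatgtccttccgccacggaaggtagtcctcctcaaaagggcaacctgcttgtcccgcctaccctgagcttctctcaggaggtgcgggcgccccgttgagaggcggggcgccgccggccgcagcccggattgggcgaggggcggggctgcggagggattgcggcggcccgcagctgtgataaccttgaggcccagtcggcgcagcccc

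In Cited2 the capitals form CACGTG, an E-box, which holds ACGTG on both strands; its first base lies at position -153, counted from the start, inside the peak. In Ddit4 an ACGTG at position -187 and a GCGTG at -115 both lie inside the peak. In Ccng2 the GCGTG, on the other strand, begins at -49 and lies outside the peak, which ends at -63. Pkm has no such core in these bases. Before the covered start of Aldoa, 1 core of the form ACGTG begins at -126, outside the peak. A match to the motif of AP-1, TGANTCA, begins at -218 and lies inside it. Before the covered start of Kdm3a, a core of the form GCGTG begins at -27, outside the peak.

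The core was frequent in the promoters of these genes whether or not a peak covered them. Over the members' 54 listed starts, 43 (79.6%) had either core in the 250 bases before them: 5 of the 6 under a peak and 38 of the 48 not under one (79.2%). Of all 32851 listed starts 38.6% had one, and of those with 11 to 22 CpG 61.4%. The genes were listed for their place in the HIF response, so a high share of HIF cores is no separate observation, and a match is not a bound site. CACGTG, which overlaps ACGTG, was found before 5 member starts (9.26%, against 6.02% of all) and TGANTCA before 3 (5.56%, against 6.75%).

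**Figure D2:**
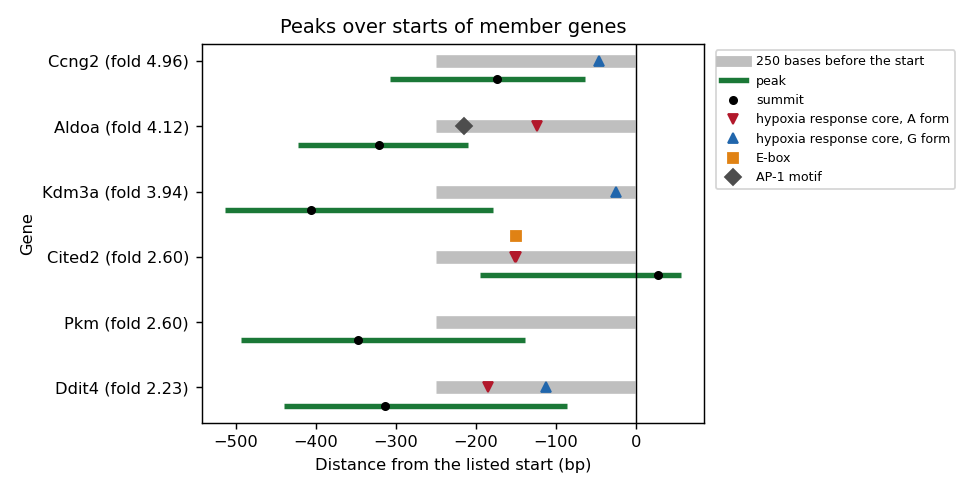
Peaks over the starts of 6 member genes, by distance from the listed start in bp (horizontal axis), ordered by fold. Gray bars are the 250 bases before the start, green bars the peaks, black points the summits, and symbols the motif matches in the gray bars; the summits lie between -406 and -173 bp, except that of Cited2, 28 bp after the start.

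Among the HIF regulators, 1 of 7 genes had a summit within 50 kb, a count too small to set apart from the 24.9% of all genes. The 1 summit in the windows of the 7 genes lay 43694 bp downstream of Vhl and inside Irak2, a gene of interleukin signalling, with a fold of 4.41 (interval 2.84 to 6.58), 22 ChIP fragments and a background of 4.21. For Hif1a the nearest summit was 90774 bp away, for Arnt 73840 bp and for Epas1 129536 bp. Among the prolyl hydroxylases the nearest summit was 63629 bp from Egln1, 164417 bp from Egln2 and 492929 bp from Egln3. With a window of 100 kb, 4 of the 7 (57.1%) had a summit, against 35.8% of all genes, the 3 added being Hif1a, Arnt and Egln1.

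Both hexokinase genes had a peak in the gene body. Hk1 and Hk2 encode the enzymes that trap glucose in the cell. The Hk2 peak (chr6:82756285-82756533) had its summit inside the gene, 18029 bp past its start, with a fold of 6.77 (interval 4.92 to 9.09) from 42 fragments over a background of 5.35. The Hk1 summit also lay inside, 31597 bp from the nearer gene end, with a fold of 4.29 (interval 2.99 to 5.97) from 33 fragments over 6.93. The intervals of these folds overlap. Of the 2 glucose transporter genes, Slc2a3 had a weak peak at a distance of 2339 bp, at a fold of 3.07 (interval 1.77 to 5.01) from 14 fragments and a −log10 q of 1.57, near the lowest in the deposited list (1.32). The nearest summit to Slc2a1 was 402181 bp away.

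In the middle and lower parts of the pathway, Aldoa and Pkm were the genes with a peak near an end. Aldoa, which encodes an aldolase, had its summit inside the gene (peak chr7:126799464-126799676), at -321 bp from the second of its 3 listed starts, with a fold of 4.12 (interval 2.67 to 6.09) from 23 fragments over a background of 4.83. Pkm encodes the pyruvate kinase that makes the last step of glycolysis. Its summit 347 bp before the start had a fold of 2.60 (interval 1.69 to 3.85), with 23 fragments over 8.22 and a −log10 q of 1.92, and lay about as close to the long non-coding RNA gene Gm51708 (323 bp). A stronger Pkm peak, with a fold of 4.82 (interval 3.36 to 6.71), lay 12376 bp downstream and inside the neighbour Gramd2.

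Other glycolysis genes had summits only at a distance. Eno1, an enolase gene, had a pair of summits 3184 bp apart, at 20946 and 24130 bp downstream, with folds of 5.92 (interval 4.44 to 7.75) and 7.85 (interval 5.50 to 10.9). Both lay nearer to Rere, a corepressor gene, and the stronger (chr4:150272862-150273137) was supported by 34 fragments over a background of 3.46. Pdk1 encodes a kinase that keeps pyruvate out of the mitochondrial citric acid cycle. Its summit, 15487 bp downstream of the gene (peak chr2:71919234-71919452), was at a fold of 5.997 (interval 3.73 to 9.20), from 19 fragments over the lowest background of the 29 (2.33), and Pdk1 was the nearest protein-coding gene. The Tpi1 summit (fold 4.38, interval 2.96 to 6.26) lay 4983 bp downstream, nearer to Spsb2, and that of Pfkfb4 (fold 4.11, interval 3.01 to 5.49) lay 10153 bp upstream, inside the collagen gene Col7a1. Gpi1, Pfkl, Pfkp, Gapdh, Pgk1, Pgam1, Pfkfb3, Ldha, Slc2a1 and the lactate exporter gene Slc16a3 had none within 50 kb, the closest being 71864 bp from Gapdh and the farthest 2934883 bp from Pgk1 on chromosome X.

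Among the other targets, the strongest of all 29 peaks lay between Ddit4 and Dnajb12. Ddit4 encodes REDD1, an inhibitor of mTORC1 growth signalling. The summits at 39968 and 41697 bp downstream of Ddit4, 1729 bp apart, had folds of 10.3 (interval 7.99 to 13.0) and 8.79 (interval 6.99 to 10.9), from 67 fragments over 5.62 and 80 over 8.22. Their peaks spanned chr10:59909414-59909884 and chr10:59907847-59908336 and ranked 77 and 187 of all 3738 peaks. Dnajb12, a chaperone gene, was the nearer protein-coding gene, and the stronger summit lay inside the long non-coding RNA gene Gm40673. The peak before the start of Ddit4, whose summit was 314 bp upstream, was the weakest of the 29: its fold was 2.23 (interval 1.56 to 3.09), with 34 fragments over 14.7, the highest background of the 29. The fourth Ddit4 summit, at 49876 bp and 503 bp from Dnajb12, had a fold of 3.15.

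Mxi1 also had its weakest peak closest to the gene, in this case inside it, and its strongest farther off. It encodes a partner of MAX that opposes MYC. The summit inside the gene, 4193 bp past its outer end, had a fold of 2.50 (interval 1.59 to 3.77) and a −log10 q of 1.44. A summit 31044 bp downstream (peak chr19:53404227-53404513) had a fold of 8.84 (interval 6.43 to 11.9), from 42 fragments over 3.86, and the third summit, at 39109 bp, had 3.99; both were nearer to the splicing factor gene Smndc1. The interval of the near Mxi1 peak did not overlap that of the peak at 31044 bp but overlapped that of the peak at 39109 bp (2.79 to 5.52). Likewise, the interval of the Ddit4 peak at 314 bp did not overlap those at 39968 and 41697 bp but overlapped that at 49876 bp (2.11 to 4.53). Vegfa, the angiogenic growth factor gene, had a summit inside, 1689 bp past its start, with a fold of 3.46 (interval 2.20 to 5.21). Another, 41695 bp upstream and nearer to Mrps18a, had 4.76 (interval 3.53 to 6.30). These intervals overlap.

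Ccng2 had the strongest peak within 2 kb of an end. The gene encodes cyclin G2, linked to cell cycle arrest, and its summit 173 bp upstream (peak chr5:93267266-93267510) had a fold of 4.96 (interval 3.48 to 6.87), from 34 fragments over 6.06. Kdm3a, which encodes a demethylase of lysine 9 of histone H3, had its summit 333 bp upstream of the gene (peak chr6:71633096-71633431) with a fold of 3.94 (interval 2.80 to 5.39), from 37 fragments over 8.65. Cited2 encodes a protein that competes with HIF for the coactivator CBP/p300. Its summit lay 28 bp past the start, with a fold of 2.60 (interval 1.69 to 3.85) and a −log10 q of 1.92. The second demethylase gene, Kdm4b, had none within 50 kb.

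The paired mitophagy genes Bnip3 and Bnip3l both had a peak. The Bnip3 summit lay 9931 bp upstream with a fold of 4.83 (interval 3.33 to 6.80), from 31 fragments over 5.62. That of Bnip3l lay inside the gene, 419 bp from an end, with a fold of 3.73 (interval 2.15 to 6.08), from 14 fragments over 3.03. Ndrg1, a stress-response gene, had summits 29073 bp outside (fold 3.93, interval 2.60 to 5.73) and 45529 bp outside (fold 5.33, interval 3.70 to 7.46), the first inside the long non-coding RNA gene Gm2895 and the second nearer to Ccn4. The summit 14116 bp upstream of Car9, the carbonic anhydrase 9 gene, had a fold of 3.34 (interval 2.50 to 4.38) over a background of 14.3 and lay inside Rmrp, the gene of the RNA of RNase MRP. Adm, Stc2, Igfbp3, Kdm4b, Higd1a, P4ha1, P4ha2, Ankrd37 and Hmox1 had none within 50 kb.

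**Figure D3:**
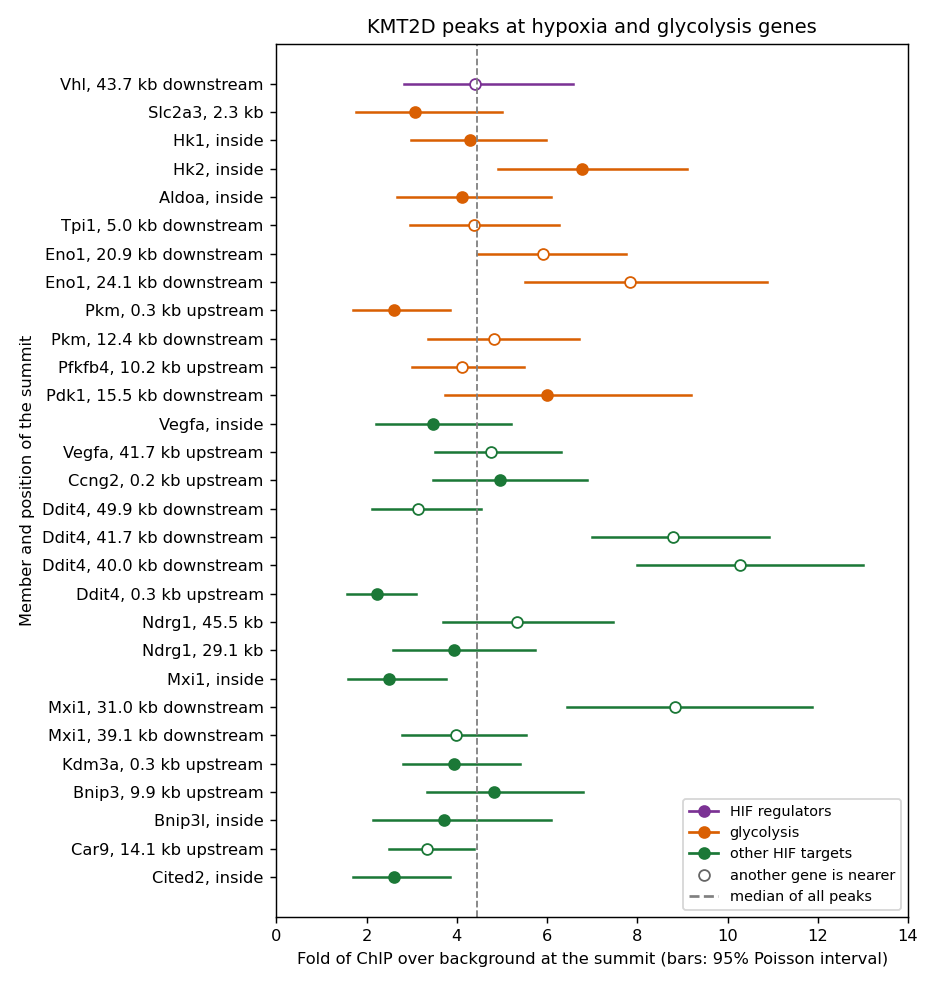
Fold of ChIP over background (horizontal axis) of the 29 peaks at member genes, with the 95% Poisson interval of the ChIP count; rows give the member and where the summit lies. Filled points mark peaks whose nearest protein-coding gene is the member; the 2 downstream Ddit4 peaks and 1 Mxi1 peak are the highest, at 10.3, 8.79 and 8.84.

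Peaks near the genes had a lower median fold than those farther off, as in the list as a whole, with no test made. The 8 member peaks within 2 kb of an end of the member had folds of 2.23 to 4.96 (median 3.59), and the other 21 had folds of 2.50 to 10.3 (median 4.76). Over the whole list the medians were 3.72 for the 1006 summits within 2 kb of an end of any protein-coding gene and 4.73 for the other 2700. Split in that same way, the member peaks had medians of 3.40 (10 peaks) and 4.82 (19 peaks). The median over all 29 was 4.29, against 4.45 for the list, and 12 of the 29 were at or above the list's median. Weak calls were frequent: 5 of the 29 (17.2%) had a −log10 q below 2, against 3.24% of the list, and for Slc2a3 and Cited2 such a peak was the only one. By position, 7 summits lay inside the member, 8 upstream and 11 downstream, and 3 lay outside members with no listed start. The widths were 210 to 569 bp (median 336, against 296 over the list).

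**Figure D4:**
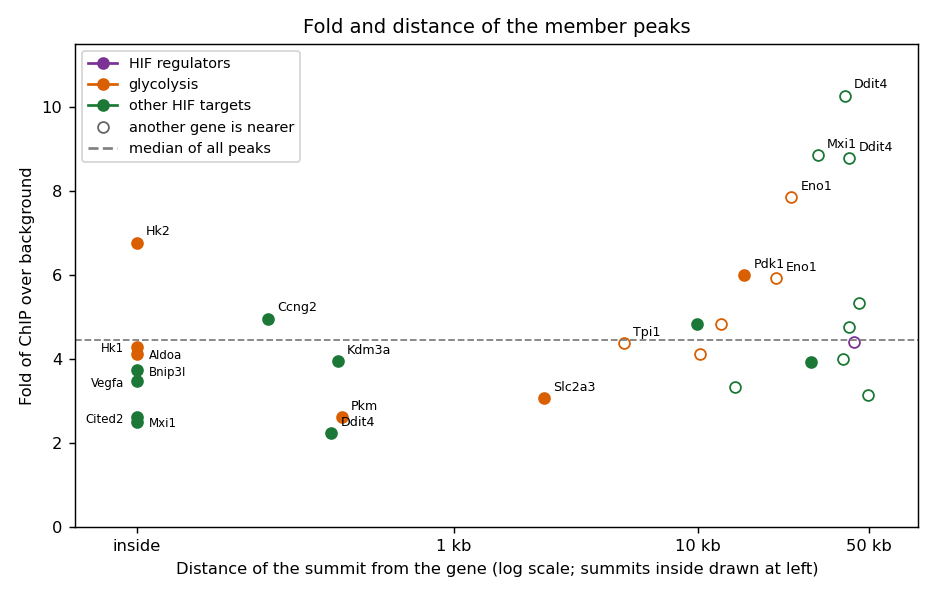
Fold of each member peak (vertical axis) against the distance of its summit from the gene (horizontal axis, log scale, with summits inside the gene drawn at left). The 5 peaks with a fold above 6.5 are Hk2, inside the gene, and Eno1, Mxi1 and 2 of Ddit4, all more than 20 kb away; open points mark peaks nearer to another gene.

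Just inside the 50 kb limit were the Ddit4 summit at 49876 bp (fold 3.15) and the Ndrg1 summit at 45529 bp (fold 5.33). Just outside it were summits 51364 bp from Ndrg1 (fold 7.40), 52453 bp from Tpi1 (fold 3.82) and 57816 bp from P4ha1 (fold 5.58). Of these, P4ha1, a collagen prolyl hydroxylase gene, is the member that the limit left without a peak.

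Other genes of the pathway, 93 listed by function, had a summit inside or within 50 kb in 38 cases (40.9%, against 24.9% of all genes). By list these were 12 of 17 further regulators of HIF (70.6%), 8 of 34 further genes of glycolysis and glucose handling (23.5%), and 18 of 42 further HIF targets (42.9%). The share of the further glycolysis genes was thus slightly below that of all genes. The members differed, with 14.3% of the HIF regulators and 47.4% of the glycolysis genes. Within 10 kb the counts of further genes were 8 of 17 regulators, 3 of 34 glycolysis genes and 10 of 42 targets. Of all genes, 12.1% had a summit that close. The further regulators with the strongest peaks of their own were Arnt2, a relative of Arnt (fold 6.28, interval 4.21 to 9.03), Bhlhe40, a transcriptional repressor gene (6.08, interval 4.26 to 8.43), and Os9 (5.61, interval 3.76 to 8.07). Among further glycolysis genes, Eno3, the muscle enolase gene, was the nearest gene to a peak, with a fold of 4.03 (interval 2.79 to 5.63). Among further targets the strongest were the lipid droplet gene Plin2 (9.82, interval 7.82 to 12.2), the lipoprotein lipase inhibitor gene Angptl4 (9.35, interval 7.31 to 11.8) and Anxa2, an annexin gene (7.19, interval 4.99 to 10.1). The peaks at Plin2, Angptl4 and Bhlhe40 were known when these lists were made, so their place here and their part in the counts are no separate observation.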

How the data were processed

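KMT2D ChIP and input chromatin from wild-type HT22 cells (1 library each) were represented by 1 deposited peak list on mm10. Bowtie2, Picard and MACS2 are the tools named per the submitters' processing notes, with neither versions nor settings. The authors deposited for each peak a fold (ratio) of ChIP over background, a p-value and a q-value, each as its −log10, and an unused score. Fold and p-value were solved together for a whole ChIP pileup, taking MACS2's form of both (1 added to pileup and background, Poisson upper tail). The solution was accepted within 0.001 of the deposited −log10 p for 3688 of 3738 peaks. The solving was tested on data simulated with the same form from solved peaks, which cannot test the form itself. The libraries' total depth was not used.

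Genes came from RefSeq's table for GRCm38.p6 (mm10), which has 21774 protein-coding genes on main sequences, and strand and starts from the RefSeq promoter table (39 of 45 members; without Epas1, Slc2a3, Ndrg1, Kdm4b, Bnip3l and Hmox1). Peaks on chromosomes 1 to 19, X and Y (3706) were placed by summit, counted from 1. All members with a peak were named, with up to 3 peaks each or, for Ddit4, all 4, and of the further pathway lists the 3 genes of highest fold among peaks nearest to them. The members and lists were chosen with earlier results of these data known, among them the peaks at Plin2, Angptl4 and Bhlhe40 and the count of oxygen-response genes at gene ends, so counts here are not independent support of those. Alternatives were other windows, stricter peaks, whole intervals, peaks left out and other gene backgrounds. Python 3.11.15, numpy 2.4.6, pandas 2.3.3 and scipy 1.17.1 were used.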

Additional observations from a re-analysis of the deposited data

How the results depend on the processing

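Among peaks with −log10 q at or above the list's median, 13 of the 45 genes had a summit within 50 kb (13.6% of all genes did). In that set 2 members, Ccng2 and Kdm3a, had one within 2 kb of an end (1.72% of all genes did). The median fold of its member peaks was 4.96 (5.75 over the list). Among peaks whose fold reached the 75th percentile, 5 members (Ddit4, Eno1, Hk2, Mxi1 and Pdk1) had a summit within 50 kb (7.48% of all genes did). Within 2 kb of an end, 0 members had one (0.657% of all genes did). A window of 10 kb gave 14 members (against 12.1% of all genes), a median fold of 3.83 and 21 of the 93 further pathway genes. Whole intervals gave 20 members. Leaving out peaks of background 20 or more gave 20, and leaving out those at small RNA genes gave 19 (without Car9). The share of all genes under these rules stayed near 24.9%. A window of 100 kb gave 29 members, but the share of all genes also rose, to 35.8%. The member counts with other windows, whole intervals or peaks left out stayed within 1.5 times the count of 20. The counts of 13 and 5 among stricter peaks did not. End windows of 1 kb (6 members, 3.94% of all genes) and 5 kb (11, 7.06%) stayed within the same multiple of the 8 at 2 kb (5.08%). Again the counts among stricter peaks, 2 and 0, did not. The share of all genes was 25.5% with a curated mRNA and 26.9% in the members' range of gene lengths, in place of 24.9%. The comparison of starts by CpG content was chosen after seeing the data. No paired analysis was possible because there is 1 library of each kind. Without replicates, differences between cultures were not measured, and low pileups (14 to 23 fragments at Slc2a3, Bnip3l, Pdk1, Vegfa, Mxi1, Vhl, Pkm, Cited2 and Aldoa) leave wide intervals.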
